A study of Gelatoporia subvermispora and Trametes versicolor with 24 samples.

Results

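In Gelatoporia subvermispora, a white-rot fungus, 172 expressed loci had between 2- and 3-fold less RNA in cultures given vanillate than in cultures given water. The 172 loci were chosen by the measured values themselves. A locus entered when its row carried a CERSUDRAFT_ identifier, when its mean over the 3 water flasks was at least 20 CPM, and when the ratio of vanillate to water lay above 1/3 and at or under 0.5. CPM, a count put on the same library size in every flask, was computed with TMM scaling, which corrects for a few genes taking many reads, and 1 was added to each mean before the ratio was taken. Of 12203 rows with such an identifier 6773 reached 20 CPM in water, and the members made up 2.54% of these. The series holds 26883 gene rows in all, 12313 of G. subvermispora and 14570 of a second white-rot fungus, Trametes versicolor.

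The cultures compared were strain FP-105752, grown as a monokaryon, mycelium with 1 type of nucleus, in static M7 medium with 5 g/L cellobiose at 28 °C. On day 12 ascorbic acid (5 mM) and α-tocopherol (1 mM) were added to every flask. The vanillate group (3 flasks) then received 2 pulses of vanillate to a final 2 mM from a 100 mM stock, and the water group (3 flasks) received 2 pulses of autoclaved water. Mycelium was harvested 12 h after the second pulse, on day 13. All flasks of both groups thus carried the antioxidants, and all came from a single strain. Whether the flasks came from separate seed cultures is not given, so that a p-value here speaks of the spread among these 6 flasks alone.

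White-rot fungi are basidiomycetes that break down all polymers of wood, lignin included. They secrete oxidative enzymes that open the lignin network, and they take up and metabolise small aromatic acids released from it. Vanillate is one such acid, a ring with a methoxy group and a hydroxy group, and it is a common model for methoxylated compounds derived from lignin. G. subvermispora is known for removing lignin in preference to cellulose and for relying on manganese peroxidases and laccases.

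The files pair none of the 172 identifiers with a gene name or product, and no genome or annotation was used here. The loci are therefore named by identifier only, without function or coordinates, and no sequence is given. The flasks held 6119420 to 12333618 gene counts, each the sum of 2 libraries. The lowest count of a member in a flask was 28, and the median member rested on 860 counts over the vanillate flasks and 2114 over the water flasks.

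The members stood in a wider range of ratios. Among loci of at least 20 CPM in water, 44 had a ratio at or under 1/3, 51 lay between 1/3 and 0.4, 49 between 0.4 and 0.45 and 72 between 0.45 and 0.5. Just above the window stood 98 loci between 0.5 and 0.55 and 142 between 0.55 and 0.6, and 901 between 0.6 and 0.8. The members' ratios had a median of 0.433, or 2.31-fold lower with vanillate.

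**Figure D1:**
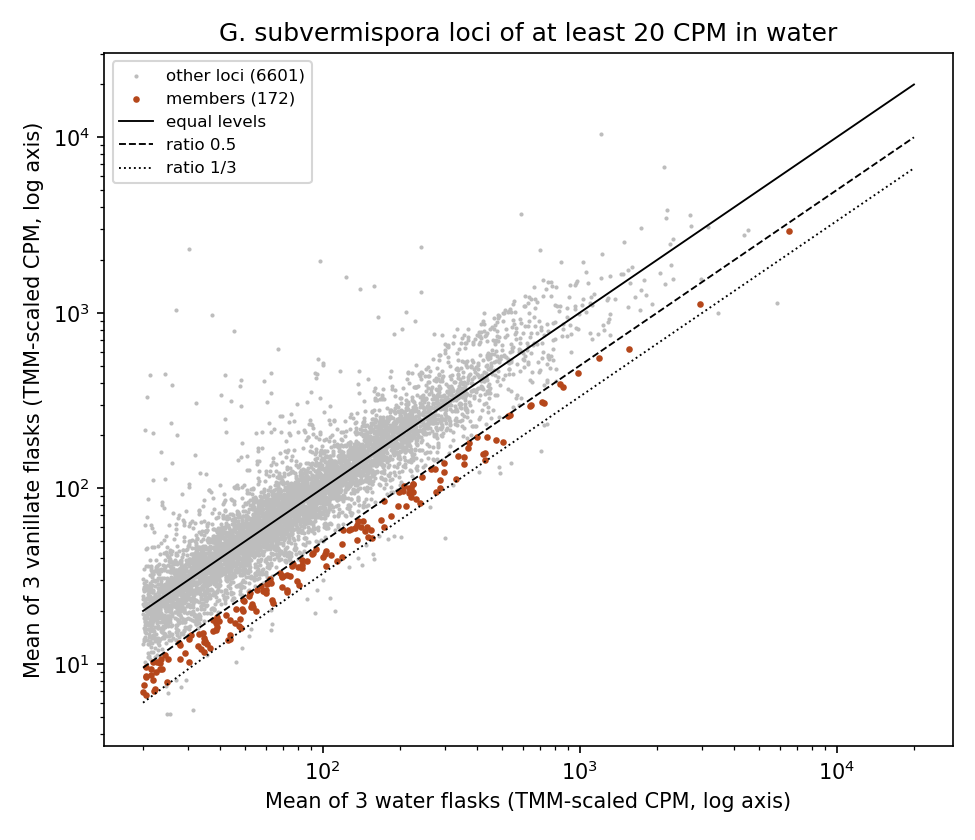
Mean level of each G. subvermispora locus in 3 vanillate flasks (vertical axis) against 3 water flasks (horizontal axis), in TMM-scaled CPM on log axes, for loci of at least 20 CPM in water. The 172 members (coloured) lie in the band between the lines for ratios of 0.5 and 1/3, from 20.03 to 6531 CPM in water, next to 6601 other loci (grey).

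The members' mean levels ranged from 6.66 to 2942 CPM with vanillate, with a median of 31.9 CPM, and from 20.03 to 6531 CPM in water, with a median of 75.4 CPM. The median of the 6601 other loci in water was 74.1 CPM, close to that of the members. With vanillate 55 of 172 members averaged under 20 CPM and 37 averaged at least 100 CPM, a level that 74 members reached in water. By level in water, the members were 2.74% of loci between 20 and 50 CPM, 1.87% between 50 and 100 CPM and 1.92% between 100 and 200 CPM. They were 3.72% between 200 and 500 CPM (32 of 860 loci), 5.88% between 500 and 1000 CPM (10 of 170) and 6.56% above that (4 of 61). Across the 172 members the ratio and the water level gave Pearson r = 0.03 on log2 values and Spearman rho = 0.03. These describe loci that share the same 6 flasks. The rule cut on both quantities and kept a narrow range of ratios, so nothing is read from them about how the fall relates to level.

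A few loci carried much of the summed level. CERSUDRAFT_79669 was the most abundant member, with 3100.1, 3136 and 2589.7 CPM in the vanillate flasks, against 5673, 6449 and 7471 CPM in the water flasks. It averaged 2942 ± 305 CPM with vanillate and 6531 ± 902 CPM in water (SD, n = 3 each), a ratio of 0.451. All 3 vanillate flasks lay far below all water flasks, and this locus alone made 17.5% of the members' summed CPM in water.

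CERSUDRAFT_78979 had 1169, 1184 and 1010.4 CPM in the vanillate flasks, against 2473, 2749.8 and 3629 CPM in the water flasks, a ratio of 0.380. CERSUDRAFT_47053 had 688, 677 and 502 CPM in the vanillate flasks, against 1438, 1388 and 1832 CPM in the water flasks, a ratio of 0.401. In both loci the third flask of each group stood apart, as the lowest with vanillate and the highest in water, and the groups did not overlap. CERSUDRAFT_110283 had 609.6, 572 and 470.5 CPM in the vanillate flasks, against 879.7, 1190.5 and 1503 CPM in the water flasks, a ratio of 0.463. Its water flasks differed widely, with an SD of 312 CPM around a mean of 1191 CPM.

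The fifth and sixth members by level were tighter. CERSUDRAFT_121827 had 431, 457 and 475.5 CPM in the vanillate flasks, against 983, 1028 and 949.5 CPM in the water flasks, a ratio of 0.461. CERSUDRAFT_82693 had 398, 375 and 360.1 CPM in the vanillate flasks, against 814, 840.3 and 930.0 CPM in the water flasks, a ratio of 0.439. In each the gap between the groups was several times the spread within them. The 9 members ranked 7 to 15 by water level ran from 838 to 471 CPM in water, with ratios of 0.364 to 0.494.

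Together the members took 1.59%, 1.60% and 1.39% of gene counts in the vanillate flasks, against 3.52%, 3.88% and 4.27% in the water flasks. The means were 1.525% ± 0.121 with vanillate and 3.89% ± 0.376 in water (SD, n = 3 each), and without CERSUDRAFT_79669 they were 1.24% ± 0.0937 and 3.21% ± 0.289. These shares had to differ, because the loci were selected on that difference. In bulk RNA, fewer cells expressing a locus and less of its RNA per cell cannot be told apart. The share of all reads that fell in genes also differed between flasks, at 70.0%, 75.7% and 76.5% with vanillate and 79.9%, 79.1% and 76.4% in water, and its part in the result was not tested.

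**Figure D2:**
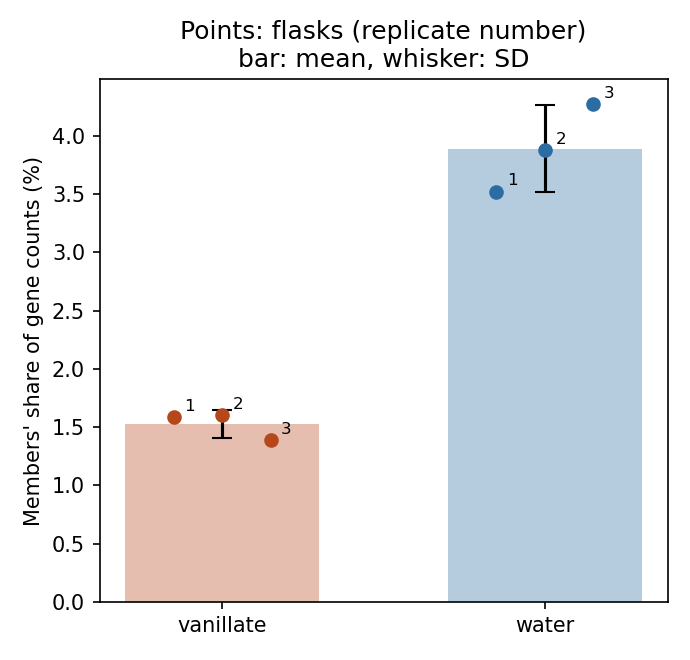
Share of all gene counts taken by the 172 members in each flask (points, with replicate number), with the mean (bar) and SD (whisker) of 3 flasks a group. The vanillate flasks lie between 1.39% and 1.60% and the water flasks between 3.52% and 4.27%.

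At the lower edge of the window stood loci close to a 3-fold difference. CERSUDRAFT_83458 had 10.5, 16.6 and 14.7 CPM in the vanillate flasks, against 46.2, 42.7 and 42.0 CPM in the water flasks, a ratio of 0.3345. CERSUDRAFT_117296 had 13.5, 15.5 and 12.2 CPM in the vanillate flasks, against 43.5, 46.9 and 38.3 CPM in the water flasks, a ratio of 0.336. Next came CERSUDRAFT_124356 at 0.340 and CERSUDRAFT_85710 at 0.341, where CERSUDRAFT_85710 had 145 ± 6.11 CPM with vanillate and 428 ± 51.0 CPM in water. In these 4 loci every vanillate flask was below every water flask. The nearest loci outside were CERSUDRAFT_103678 at 0.3328, with 11.2 ± 1.02 CPM with vanillate and 35.6 ± 2.995 CPM in water, and CERSUDRAFT_78024 at 0.3317.

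At the upper edge the differences were close to 2-fold. CERSUDRAFT_118263 had 105, 91.2 and 114 CPM in the vanillate flasks, against 212, 205 and 205 CPM in the water flasks, a ratio of 0.4993. CERSUDRAFT_140479 had 24.5, 24.5 and 27.0 CPM in the vanillate flasks, against 52.1, 51.3 and 52.4 CPM in the water flasks, a ratio of 0.498. CERSUDRAFT_125926 and CERSUDRAFT_46564 both stood at 0.496. Small differences with tight flasks were thus among the members, and the groups did not overlap in these 4 loci either. Just outside lay CERSUDRAFT_112199 at 0.5012, with 39.7 ± 2.30 CPM with vanillate and 80.3 ± 16.4 CPM in water, and CERSUDRAFT_126728 at 0.5015.

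The floor on the water level was met most narrowly by CERSUDRAFT_95106, which had 4.797, 7.84 and 8.03 CPM in the vanillate flasks, against 15.3, 23.3 and 21.5 CPM in the water flasks. Its water mean was 20.03 CPM, and that of CERSUDRAFT_136944 was 20.16 CPM. CERSUDRAFT_83378, at 19.76 CPM in water and a ratio of 0.457, and CERSUDRAFT_59714, at 19.61 CPM and a ratio of 0.373, fell just short of the floor.

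All 172 members were tested in the fit over 10318 genes of G. subvermispora, and 167 were lower with vanillate at an adjusted p under 0.05 by edgeR's quasi-likelihood test with Benjamini-Hochberg adjustment. In the same fit 25.9% of all genes were called lower, or 2675 genes, against 2629 called higher. With library totals in place of TMM these were 3812 and 1788. All 3 vanillate flasks lay below all 3 water flasks in 171 of 172 members, and in 30.2% of all genes tested. Nothing is read from these counts, since the same contrast chose the members. The fitted log2 fold changes of the members ran from -1.66 to -1.01 with a median of -1.23, beside a median of -0.01 over all genes tested, and their standard errors ran from 0.06 to 0.47 with a median of 0.12.

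All 172 members passed the DESeq2 Wald test. The share of all genes it called was not computed, and the same contrast chose the members, so nothing is read from that count. The 5 members that did not pass edgeR's test were CERSUDRAFT_79865, CERSUDRAFT_117067, CERSUDRAFT_115450, CERSUDRAFT_79517 and CERSUDRAFT_115038. Their adjusted p by edgeR's test ran from 0.0587 to 0.0993, at fitted log2 fold changes of -1.14 to -1.26. CERSUDRAFT_115038 had 43.7, 33.1 and 19.0 CPM in the vanillate flasks, against 43.0, 72.5 and 103 CPM in the water flasks. It was the 1 member whose groups overlapped, through vanillate replicate 1 and water replicate 1. CERSUDRAFT_115450 had 109.6, 132 and 59.6 CPM in the vanillate flasks, against 135, 239 and 290.4 CPM in the water flasks, so that the closest flasks were almost equal.

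CERSUDRAFT_117067 showed the largest spread of any member, an SD of 0.74 on the log2 scale over the water flasks. It had 133, 121 and 116 CPM in the vanillate flasks, against 169.7, 249 and 468 CPM in the water flasks. The vanillate flasks agreed closely while the water flasks differed among themselves by more than the lowest of them differed from the vanillate level. CERSUDRAFT_114151 also had its larger spread over the water flasks, there through a low replicate 1. It had 16.8, 18.0 and 13.3 CPM in the vanillate flasks, against 25.5, 61.1 and 57.3 CPM in the water flasks. This locus passed the test (edgeR adjusted p = 0.0287). At the other end, CERSUDRAFT_118493 had 12.7, 13.0 and 13.3 CPM in the vanillate flasks, against 36.2, 34.9 and 35.8 CPM in the water flasks. CERSUDRAFT_152760 was nearly as tight, at 14.6 ± 0.640 CPM with vanillate and 30.7 ± 0.698 CPM in water (SD, n = 3 each).

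**Figure D3:**
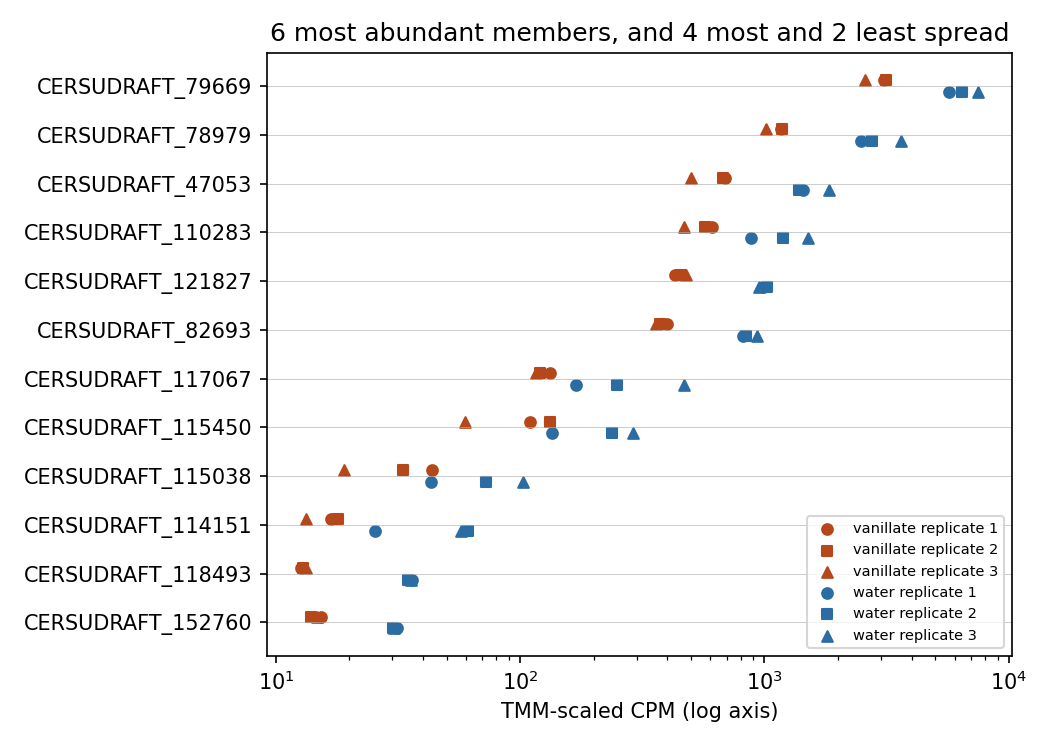
TMM-scaled CPM (log axis) in each flask for the 6 most abundant members, the 4 with the largest and the 2 with the smallest spread between flasks. Vanillate flasks (upper marks of each row) lie left of the water flasks (lower marks) except in CERSUDRAFT_115038, where 43.7 CPM in vanillate replicate 1 passes 43.0 CPM in water replicate 1.

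**Figure D4:**
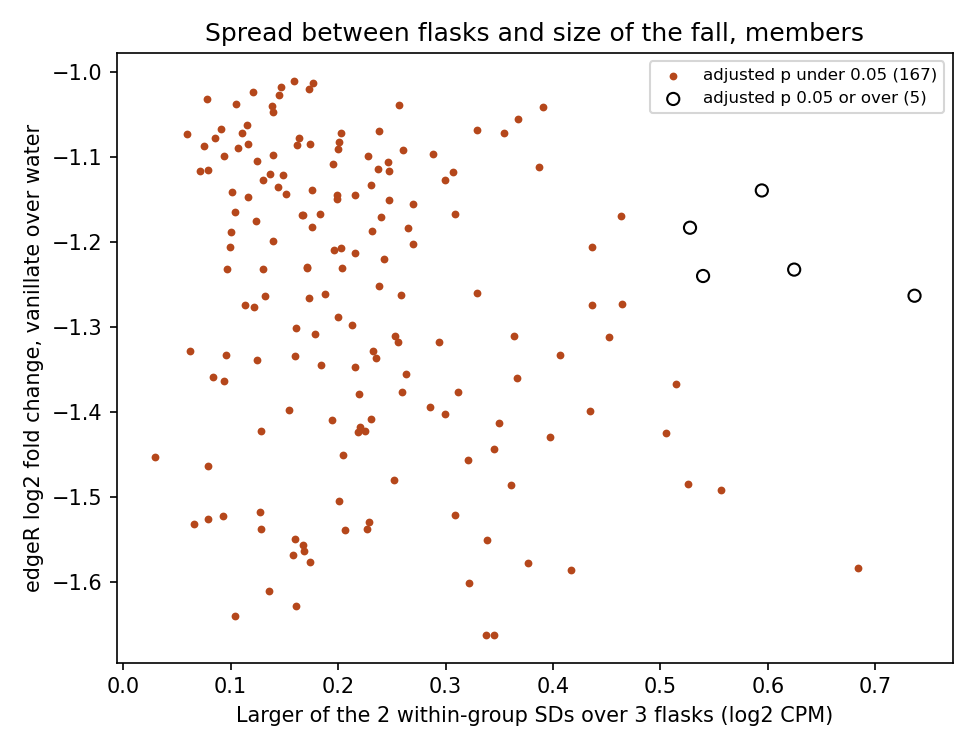
Fitted log2 fold change, vanillate over water (vertical axis), against the larger within-group SD of log2 CPM over 3 flasks (horizontal axis) for each member. The 5 members that did not pass the test (open circles) lie at SDs over 0.5 and at log2 fold changes no smaller in size than those of many tighter members.

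The larger of the 2 within-group SDs had a median of 0.20 on the log2 scale over the members and 0.11 over the 6601 other loci. Over the water flasks alone, where median levels were similar, the median SDs were 0.168 and 0.086. Over the vanillate flasks alone, where levels were not matched, they were 0.139 and 0.0745. The larger SD was at least 0.4 in 18 members, or 10.5%, and in 57 other loci, or 0.864%. This is a description without a test. A wide spread between flasks can itself carry a locus across a limit of the rule, and its part here was not tested. Loci lowered 3-fold or more, of which there were 44, had a median of 0.23.

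Vanillate replicate 3 was the lowest of its group in 112 of 172 members (65.1%) and in 36.4% of the other loci, and water replicate 1 was the lowest of its group in 103 members (59.9%) and in 33.5% of the others. Both held in 71 members (41.3%), against 13.5% of the other loci. Water replicate 3 was the highest water flask in 98 members (57.0%), against 34.2% of the others. Among the 20 members of the largest spread, water replicate 1 was lowest in 19 and vanillate replicate 3 in 18. Loci of one flask are not independent, so these shares carry no test. The rule chose the members on these same flasks, and a low vanillate flask or a high water flask can itself bring a locus into the window. The part of this in the shares was not tested.

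Relative to each locus's water mean, the median member stood at -1.15, -1.15 and -1.30 on the log2 scale in the vanillate flasks, against -0.11, 0.01 and 0.09 in the water flasks. A level at or under 0.5 of the water mean was reached by 144, 139 and 163 members in vanillate replicates 1, 2 and 3, and by none in any water flask. In 112 members all 3 vanillate flasks were at or under that level, in 50 members 2 were, and in 10 members 1 was. The highest vanillate flask was at most 0.5 of the lowest water flask in 58 members, with a median of 0.527 over the 172. The rule held each member's ratio at or under 0.5 on these same flasks. The shares among other loci were not computed, so nothing is read from these counts. Vanillate replicates 1, 2 and 3 held 6119420, 12333618 and 9912808 gene counts. Water replicates 1, 2 and 3 held 8498106, 8554557 and 9765746, which rose in the order of their medians. The part of depth was not tested.

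**Figure D5:**
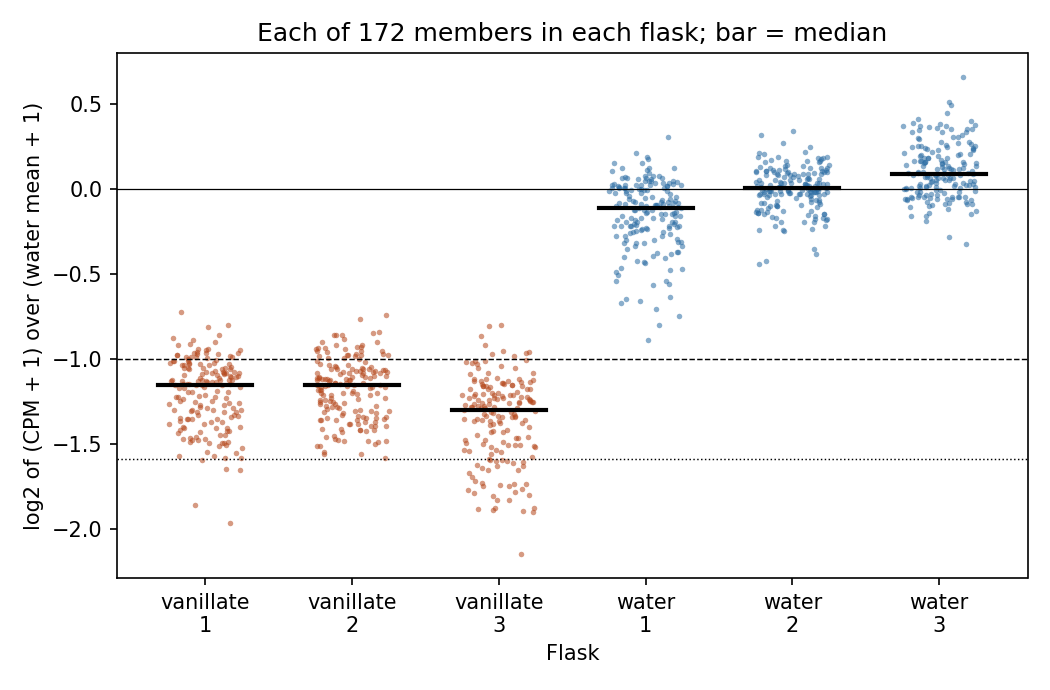
Level of each of 172 members in each flask as log2 of CPM + 1 over the locus's water mean + 1, with the median as a bar. Dashed and dotted lines mark ratios of 0.5 and 1/3. The medians are -1.15, -1.15 and -1.30 in the vanillate flasks and -0.11, 0.01 and 0.09 in the water flasks.

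With counting error as the sole error, the 95% interval around a ratio lay wholly inside the window in 100 of 172 members. The interval reached past 0.5 in 49 members and past 1/3 in 23, and past 1 in none. By the fitted fold change, a slightly different quantity from the ratio of the rule, 46 members were within 1 SE of a 2-fold difference or smaller and 43 within 1 SE of a 3-fold difference or larger, and 90 were within neither. These intervals leave out amplification, since the reads have no molecular identifiers. The first libraries alone placed 148 members in the window, the second alone 157, and both alike 133, with a median difference of 0.06 in log2 ratio between the 2 sets. When each flask was left out in turn, 98 members met the rule every time, and the ratio of a member ran from 0.283 to 0.593.

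The rule took rows with an identifier only, and 6 of 76 rows with a gene symbol that reached 20 CPM in water met the same numbers. These were CsMn38, Cslcs2, acl4, ter14, MnP6 and MnP10. MnP6 and MnP10 carry symbols of manganese peroxidases, secreted heme enzymes that oxidise manganese ions which in turn attack lignin. MnP6 averaged 15.6 ± 2.28 CPM with vanillate and 33.5 ± 3.37 CPM in water, and MnP10 averaged 11.1 ± 1.77 CPM and 26.9 ± 2.35 CPM (SD, n = 3 each). Cslcs2, by its symbol a laccase, a copper enzyme that oxidises phenols, averaged 76.6 ± 9.95 CPM with vanillate and 193.6 ± 63.2 CPM in water. CsMn38, at 2417 ± 367 CPM with vanillate and 4973 ± 1161 CPM in water, was second only to CERSUDRAFT_79669 in level among all rows that met these numbers. With vanillate and in water, acl4 averaged 23.5 ± 1.37 and 66.7 ± 6.39 CPM, and ter14 averaged 16.6 ± 1.23 and 43.7 ± 2.61 CPM. Manganese peroxidase and laccase rows outside the 6 are not described here, so nothing is read about these enzyme families.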

How the data were processed

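For each of 12 G. subvermispora libraries, the authors deposited raw counts of reads per gene. FastQC, STAR and HTSeq are named in the submitters' processing notes. Versions, genome build, annotation and strand setting were not given in the sources used here. Stranded total RNA libraries were sequenced as single reads, per the labels' protocols. Reads shared between near-identical or overlapping loci could have been lost or split, so such loci are uncertain. Lines of reads assigned to no gene were left out of library sizes and tests, and genes took 74.1% ± 3.54 of reads with vanillate and 78.5% ± 1.83 in water (SD, n = 3).

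The 2 libraries of each flask were summed. CPM was computed with TMM scaling over all gene rows in edgeR 4.0.16 (R 4.3.3). The fit across all genes used filterByExpr (min.count 10, min.total.count 15), TMM and the two-sided quasi-likelihood F test with robust estimation, and Benjamini-Hochberg adjustment over 10318 genes. The SE is the absolute log2 fold change over the square root of F. Counting intervals carry the Poisson error of each flask's count to the log of the ratio by a normal approximation, at 95%. Alternatives were other scalings, libraries, filters and limits, DESeq2 1.42.0, a replicate block and leaving out flasks.

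The members and lists were chosen with earlier results of these data known. Loci named are the 6 most abundant members, those just inside and outside each limit, the 4 with the largest and 2 with the smallest spread, and those whose flasks overlap. The 5 members that did not pass and the 6 symbol rows were named after their values were seen. Keyword lists of products could not be applied to bare identifiers, and T. versicolor counterparts were not analysed here.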

Additional observations from a re-analysis of the deposited data

How the results depend on the processing

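The rule found 172 members, and 167 of them were called lower. The count by rule was 158 to 183 on leaving out a flask, of which 141 to 161 were among the 172, and the count of calls was 161 to 169. With library totals, which moved the median of all genes to -0.14 on the log2 scale, 232 loci met the rule, 147 of them among the 172, while 25 members moved to a ratio at or under 1/3 and the members' median ratio was 0.397. DESeq2 size factors gave 171 loci. A water floor of 50 CPM left 112 loci, fewer by construction, and a floor of 10 gave 208; group medians gave 168, and adding 0 or 5 gave 174 or 146. Of the calls, the DESeq2 Wald test made 172, no filter 166, and the first or second library alone 165 or 167. The share of all genes called under these alternatives was not computed, so nothing is read from these counts. Without water replicate 1 and vanillate replicate 3 together, an alternative chosen after seeing the data, 182 loci met the rule, 152 of them among the 172, and 169 members were called.

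A replicate block left 160 calls. Deviations of same-numbered flasks correlated at -0.03, 0.04 and -0.17 over genes, and those of differently numbered flasks at -0.14 to 0.16. Deviations within a group of 3 flasks constrain one another, so these values cannot decide whether flasks were paired. The labels give numbers but no shared source, so the numbers are not taken to pair the flasks. Of 264 values for 22 named members under 12 alternatives, 255 moved by less than the spread between flasks, 9 moved by more and 0 changed direction. All 9 came from library totals or from the first or second libraries alone. Leaving out a flask can hardly move a mean by more than the spread of the same flasks, so nothing is read from those values. A value among the 255 could still leave the window, as that of CERSUDRAFT_117067 did without water replicate 3. The tests for T. versicolor counterparts were not run, as no proteins or names were used to pair the fungi. At this depth, placing a locus at the edge of the window is limited by counting error as well as by the flasks.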
